A study of Mus musculus with 6 samples.

Results

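Immediate early genes were examined in the RNA-seq of mouse dorsal skin as 10 genes chosen by name, Fos, Fosb, Jun, Junb, Egr1, Atf3, Ier2, Dusp1, Nr4a1 and Zfp36. All 10 were found among the 21959 genes of the deposited table, and all 10 passed the filter on low counts. The skin came from male C57BL/6 mice, 7 weeks old and in telogen, the resting phase of the hair cycle, whose backs had been shaved. The vehicle group (3 libraries) received 30% dipropylene glycol in water once a day, and the Reba group (3 libraries) received 3% rebamipide in the same way, until skin was taken on day 7. No deletion or transgene was carried by either group. Rebamipide is a drug made for gastric ulcers, which the study tested for hair regrowth. The interval from the last application to excision, and the order in which the mice were killed, are not given in the sources used here. Values are normalized CPM, which are read counts scaled to a common library size with TMM factors, unless another scale is named.

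Immediate early genes are switched on within minutes of a stimulus, without new protein synthesis, because their promoters are already occupied by factors such as SRF and CREB that kinases activate. Fos and Fosb encode FOS proteins, which pair with the JUN proteins encoded by Jun and Junb to form the transcription factor AP-1. Egr1 and Nr4a1 encode zinc finger and nuclear receptor transcription factors, Atf3 a stress-induced factor of the ATF/CREB family, and Ier2 a small nuclear protein. Dusp1 and Zfp36 belong to the feedback arm, since DUSP1 dephosphorylates MAP kinases and ZFP36 (tristetraprolin) drives decay of mRNAs with AU-rich elements. In skin these genes are known to respond to wounding, to growth factors and to the handling or dissociation of tissue.

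The promoters of 4 members whose levels are contrasted below are given, since immediate early induction is read from such sequences. RefSeq promoters on GRCm38.p6 were matched for 8 of the 10 genes, and the 250 bases before the start site are shown. Capitals mark the letters TGACG on either strand, the core of the cyclic AMP response element bound by CREB.
Fos promoter (chr12:85473640-85473889, plus strand): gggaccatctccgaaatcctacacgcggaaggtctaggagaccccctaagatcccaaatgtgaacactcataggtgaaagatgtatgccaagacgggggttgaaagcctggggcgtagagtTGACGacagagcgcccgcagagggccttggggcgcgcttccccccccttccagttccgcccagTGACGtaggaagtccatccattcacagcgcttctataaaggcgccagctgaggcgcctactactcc
Junb promoter (chr8:84978749-84978998, minus strand): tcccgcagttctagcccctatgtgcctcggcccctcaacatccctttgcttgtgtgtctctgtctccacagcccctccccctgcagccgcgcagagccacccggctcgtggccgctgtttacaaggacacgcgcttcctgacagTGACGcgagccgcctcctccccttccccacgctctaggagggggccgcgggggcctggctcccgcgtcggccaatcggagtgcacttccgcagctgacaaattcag
Nr4a1 promoter (chr15:101266596-101266845, plus strand): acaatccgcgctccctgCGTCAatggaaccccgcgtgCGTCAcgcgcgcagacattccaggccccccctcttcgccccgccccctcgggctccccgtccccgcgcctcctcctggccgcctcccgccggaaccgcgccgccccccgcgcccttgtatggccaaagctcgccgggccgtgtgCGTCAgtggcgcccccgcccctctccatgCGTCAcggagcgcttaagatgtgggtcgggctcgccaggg
Dusp1 promoter (chr17:26508473-26508722, minus strand): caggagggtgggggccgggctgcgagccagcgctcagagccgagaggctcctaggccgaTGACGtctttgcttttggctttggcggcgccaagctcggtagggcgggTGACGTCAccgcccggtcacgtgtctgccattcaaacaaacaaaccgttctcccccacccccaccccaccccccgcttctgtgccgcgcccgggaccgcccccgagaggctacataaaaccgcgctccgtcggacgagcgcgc
TGACG was present on either strand in 6 of the 8 promoters, against 17.8% of the 32851 promoter windows of the same length. Nr4a1 held 4 matches and Fos held 2, while Jun and Zfp36 held 0. The full palindrome TGACGTCA, which contains the shorter letters on both strands, was found in Dusp1 alone among the 8, and in 1.5% of all windows. The letters of an EGR binding site, GCGNGGGCG, were present in Fosb, Nr4a1 and Zfp36 (4.7% of all windows). The CArG box of SRF was present in Zfp36 alone (1.5% of all windows), and the AP-1 letters TGANTCA in 0 of the 8 (6.7% of all windows). The 8 promoters had a median GC content of 65.8%, against 52.4% over all windows, and its part in these shares was not tested. These matches are letters in a short window and do not show binding. Sites beyond the 250 bases, and the promoters of Egr1 and Ier2, were not searched.

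By the principal transcripts of GENCODE M21, the 10 genes had a median of 3 exons against 9 over 14535 tested protein-coding genes, and Jun, Junb and Ier2 had 1 exon each. The pentamer ATTTA, the unit of AU-rich decay elements, occurred in the 3' UTR of 9 of the 10 genes, against 65.1% of those protein-coding genes. Its median density was 3.56 per kilobase of 3' UTR against 1.17 per kilobase. The highest density was that of Dusp1 (5.8 per kilobase), and Ier2 held 0.

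The 6 libraries differed in their levels of cell type markers, and the part of these differences in the values below was not tested. Total counts were 38676018 to 39915276 in the vehicle group and 32709801 to 34706852 in the Reba group, and genes of the mitochondrial genome took 2.59% to 5.36% and 13.28% to 21.96% of them. The basal keratinocyte markers (7 genes) summed to 2510 to 4050 CPM in vehicle skin, against 1180, 724 and 144 CPM in Reba replicates 1, 2 and 3. Of these 7 genes 0 passed in edgeR after adjustment, against 20.6% of all genes. At an unadjusted p-value under 0.05, 2 were lower, against 18.8% of all genes. Itga6 alone made up 129 of the 144 CPM in Reba replicate 3. In Reba replicate 3 Krt14 and Krt15, which define basal keratinocytes, had 0 counts, so this library lacked a defining sign of epidermis. The growing hair follicle markers (9 of 10 listed genes were in the table) summed to 24200 and 13200 CPM in vehicle replicates 1 and 2, although the skin is described as resting, and to 275 CPM in vehicle replicate 3. In Reba replicates 1, 2 and 3 the same markers summed to 1130, 1.25 and 0.458 CPM (median log2 fold change -4.6, with 0 of 9 passing in edgeR, also at an unadjusted p-value under 0.05). In bulk tissue, fewer cells of a type cannot be told apart from less RNA per cell.

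None of the 10 immediate early genes differed between the groups at an adjusted p-value under 0.05 (edgeR quasi-likelihood test, adjusted over 14875 genes), where 20.6% of all genes tested did. At an unadjusted p-value under 0.05, 3 members were lower, Junb, Ier2 and Egr1, and 0 were higher, against 18.8% and 20.9% of all genes. DESeq2 called 2 of them lower, Junb and Ier2, where it called 2535 of all 16792 genes lower, and limma-voom called Junb alone, where it called 1033 of 14875 lower. Reba against vehicle, the log2 fold change was below 0 for 8 of 10 members and for 56.9% of all genes, with a median of -0.69 against -0.175, while library totals as the only scaling put all 10 below 0 and the median of all genes at -0.778. In 4 members, Junb, Ier2, Jun and Zfp36, every Reba library was below every vehicle library, which was so for 24% of all genes.

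**Figure D1:**
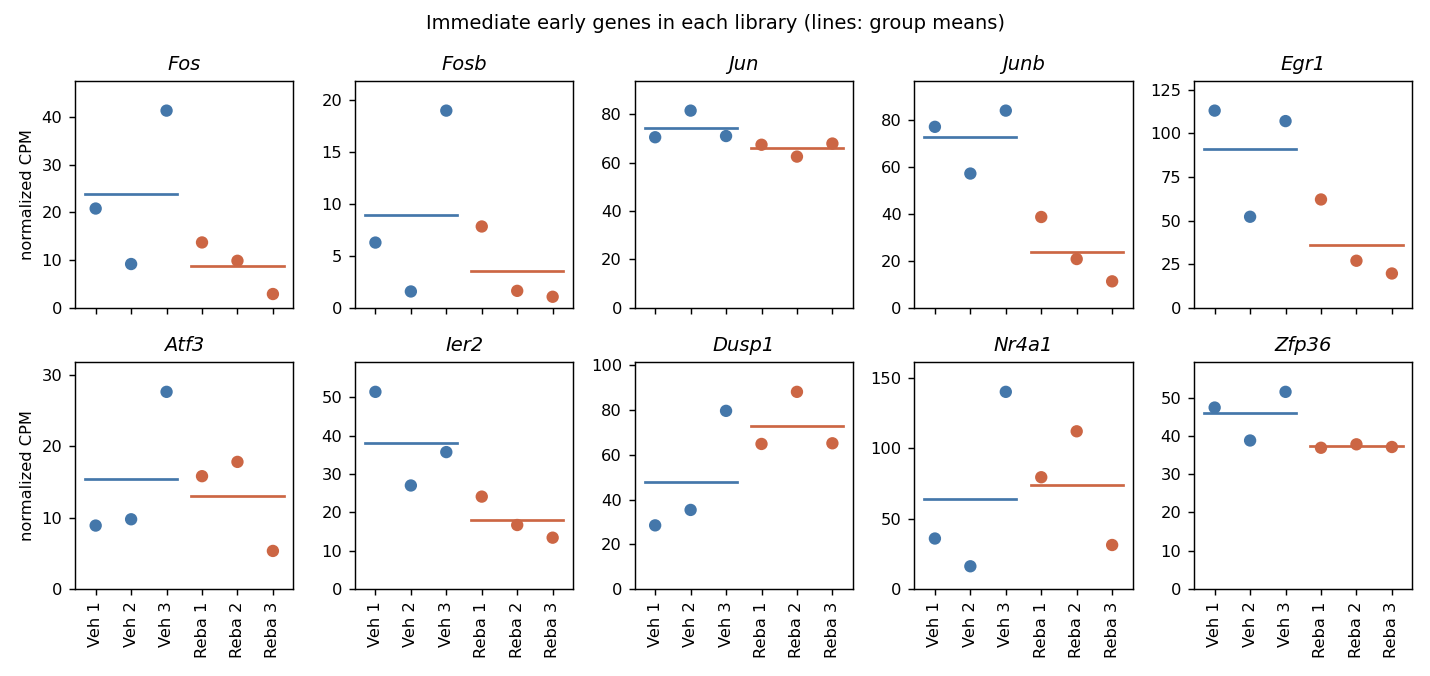
Normalized CPM of each gene (y axis, linear from 0, own scale per panel) in the 3 vehicle (blue) and 3 Reba (orange) libraries, with group means as lines. Vehicle replicate 3 was the highest library for 6 of the 10 genes and Reba replicate 3 the lowest for 6.

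Of the AP-1 genes, Junb lay nearest to the threshold. It was at 77.1, 57.2 and 84.0 CPM in vehicle replicates 1 to 3 and at 38.7, 20.8 and 11.3 CPM in Reba replicates 1 to 3. The groups did not overlap, and the lowest Reba value was that of the library without Krt14. The group levels were 72.7 ± 13.9 and 23.6 ± 13.9 CPM (SD, n = 3 libraries each), a log2 fold change of -1.62 (standard error 0.46, 95% interval -2.73 to -0.51, adjusted p = 0.0532, edgeR). Its side of the threshold turned on the settings, with adjusted p-values of 0.0483 under RLE normalization, 0.0358 with limma-voom, 0.00788 with DESeq2 and 0.0168 without Reba replicate 1 (edgeR). It was not called without any one of the other 5 libraries, with adjusted p-values of 0.0812 to 0.177, nor under upper quartile normalization (0.0559) or with no filter (0.0644) (edgeR). The span of Junb in the deposited table (chromosome 8, 85701113 to 85705347, GRCm39) overlaps that of Prdx2 on the other strand, and the strand setting of the counting is not given. Prdx2 itself had a log2 fold change of 0.35.

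Jun, the partner gene of the same family, was nearly level. It was at 70.5, 81.5 and 71.0 CPM in vehicle skin, against 67.4, 62.5 and 67.9 CPM in Reba skin. The highest Reba library was below the lowest vehicle library, although by a small margin. In the edgeR fit, the log2 fold change was -0.17 (standard error 0.16, 95% interval -0.55 to 0.21, adjusted p = 0.433, edgeR), close to the median of all genes tested at -0.175. Library totals as the only scaling gave -0.79 (adjusted p = 0.0261, edgeR).

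The balance between Junb and Jun needs no scaling of the libraries, since both are read in the same library and per length. Junb made up 48.7%, 40.2% and 47.7% of the summed CPM per kilobase of Jun, Junb and Jund in vehicle skin, and 32.8%, 24.5% and 14.5% in the Reba libraries. The groups did not overlap, and the mean difference was -21.6 percentage points, or -16.9 without Reba replicate 3. With 3 libraries a group the two-sided exact permutation p cannot go below 0.1, and it was p = 0.1, or 0.3 after adjustment over 9 such quantities, which were chosen after the values were seen. The share of Jun was 34.2% ± 6.41 and 52.4% ± 10.8 (SD, n = 3 each, exact permutation p = 0.2) and that of Jund 20.2% ± 2.65 and 23.7% ± 1.96 (exact permutation p = 0.3).

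**Figure D2:**
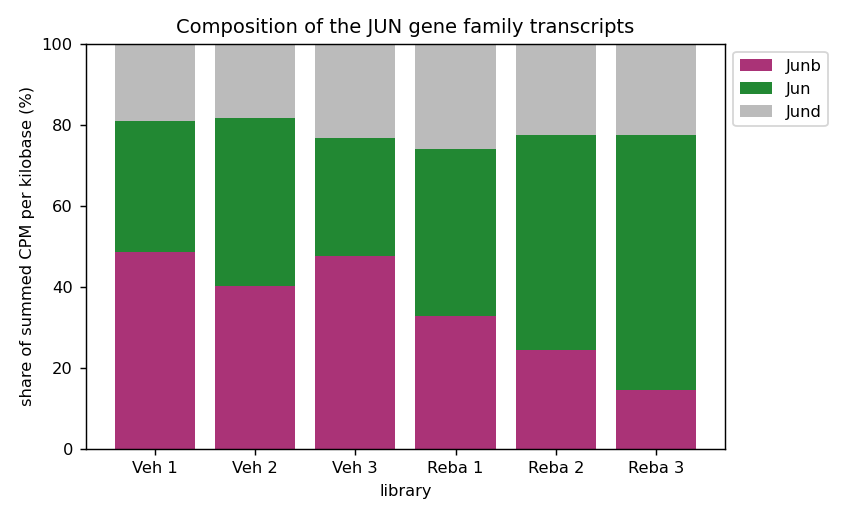
Share (y axis, percent, stacked to 100) of Junb, Jun and Jund in their summed CPM per kilobase, for each of the 6 libraries (x axis). The Junb share was 40.2% to 48.7% in vehicle skin, above the 14.5% to 32.8% of Reba skin.

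Fos and Fosb were set apart from the JUN genes by their spread between replicates. Fos was at 20.8, 9.18 and 41.3 CPM in vehicle skin, against 13.7, 9.86 and 2.90 CPM in Reba skin. The groups overlapped, since vehicle replicate 2 lay below Reba replicates 1 and 2. The fitted log2 difference was -1.43 (standard error 0.73, 95% interval -3.20 to 0.35, adjusted p = 0.193, edgeR), and it was -0.74 without vehicle replicate 3.

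Fosb had a wider range than Fos, with the same highest and lowest libraries. It was at 6.29, 1.58 and 19.0 CPM in vehicle skin, against 7.84, 1.64 and 1.07 CPM in the Reba libraries, and the counts ranged from 28 to 887. Within the vehicle group the highest value was 12 times the lowest, and within the Reba group 7.33 times. The log2 fold change of -1.34 had a 95% interval from -3.99 to 1.30 (adjusted p = 0.383, edgeR), and it ranged from -0.12 without vehicle replicate 3 to -2.72 without Reba replicate 1, neither of which was called (edgeR).

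Within the FOS genes the composition varied between replicates. Fos made up 25.1%, 17.4% and 48.9% of the summed CPM per kilobase of Fos, Fosb, Fosl1 and Fosl2 in vehicle replicates 1 to 3, and 34.8%, 33.9% and 22.3% in Reba replicates 1 to 3. The means were 30.5% ± 16.4 and 30.3% ± 6.98 (SD, n = 3 each, exact permutation p = 1), and that of the vehicle group rested on replicate 3, the other vehicle libraries lying below Reba replicates 1 and 2. Fosl2, a later and more stable FOS gene of the wider list, made up 64.1% ± 20.8 and 63.9% ± 8.45, and it had the largest share in each library but vehicle replicate 3, where it was at 40.9%. The FOS genes together took 33.9%, 26.7% and 31.9% of the summed AP-1 level in vehicle skin and 24.6%, 25% and 14.0% in the Reba libraries. These did not overlap (exact permutation p = 0.1, the smallest possible, and 0.3 after adjustment over the 9 quantities).

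In the edgeR fit to all 6 libraries, Egr1 and Ier2 had unadjusted p-values under 0.05 but did not pass after adjustment. Egr1, whose product is a zinc finger factor induced by growth factors, was at 113, 52.2 and 107 CPM in vehicle skin, against 62.1, 27.0 and 19.7 CPM in Reba skin. Vehicle replicate 2 was below Reba replicate 1, so the groups overlapped. Reba against vehicle, the log2 fold change was -1.32 (standard error 0.52, 95% interval -2.57 to -0.07, adjusted p = 0.112, edgeR).

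Ier2 was at 51.4, 27.0 and 35.7 CPM in vehicle skin, against 24.1, 16.7 and 13.4 CPM in Reba skin. The groups did not overlap, and again Reba replicate 3 was the lowest. In the edgeR fit, the log2 fold change was -1.07 (standard error 0.34, 95% interval -1.90 to -0.25, adjusted p = 0.0697, edgeR). Without Reba replicate 1, where lower calls over all genes rose from 968 to 1971, both genes were called, with adjusted p-values of 0.0299 for Egr1 and 0.0424 for Ier2 (edgeR). Without any one of the other 5 libraries neither was called, with adjusted p-values of 0.15 to 0.29 for Egr1 and 0.119 to 0.211 for Ier2 (edgeR).

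For Nr4a1 and Atf3 the groups overlapped widely. Nr4a1, an orphan nuclear receptor gene, was at 35.9, 16.2 and 140 CPM in vehicle skin, against 79.4, 112 and 31.3 CPM in Reba skin. The log2 fold change was 0.21 (standard error 0.84, 95% interval -1.83 to 2.25, adjusted p = 0.867, edgeR), but library totals as the only scaling gave -0.38, and the value was 1.52 without vehicle replicate 3. Its vehicle range of 8.63 times spanned all the Reba libraries.

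Atf3 was at 8.89, 9.77 and 27.6 CPM in vehicle skin, against 15.8, 17.8 and 5.34 CPM in Reba skin. Vehicle replicate 3 was the highest and Reba replicate 3 the lowest. Reba against vehicle, the log2 fold change was -0.25 (standard error 0.63, 95% interval -1.76 to 1.27, adjusted p = 0.79, edgeR), and it was 0.49 without vehicle replicate 3 and 0.13 without Reba replicate 3.

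The feedback genes Dusp1 and Zfp36 had fold changes of opposite sign, and neither passed the test. Dusp1 was at 28.5, 35.4 and 79.7 CPM in vehicle skin, against 64.9, 88.2 and 65.2 CPM in Reba skin. The Reba libraries were all above vehicle replicates 1 and 2, while vehicle replicate 3 lay among them. In the edgeR fit, the log2 fold change was 0.61 (standard error 0.42, 95% interval -0.40 to 1.61, adjusted p = 0.311, edgeR). It was -0.01 when library totals were the only scaling, and 1.19 without vehicle replicate 3, where it was called higher (adjusted p = 0.0339, edgeR). The listed span of Dusp1 (chromosome 17, 26724564 to 26781102, GRCm39) overlaps that of Ergic1 on the other strand, which was higher in the Reba group (log2 fold change 1.32, adjusted p = 0.0193, edgeR), and without the strand setting the reads of the overlap cannot be told apart.

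Zfp36 was at 47.4, 38.8 and 51.5 CPM in vehicle skin, against 36.9, 37.8 and 37.1 CPM in Reba skin. The groups did not overlap, and the Reba libraries lay within 1.02 times of each other. The log2 fold change was -0.30 (standard error 0.18, 95% interval -0.73 to 0.13, adjusted p = 0.248, edgeR). Library totals as the only scaling gave -0.92 (adjusted p = 0.0214, edgeR), and limma on log2(FPKM + 1) gave -0.84 (adjusted p = 0.0152).

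**Figure D3:**
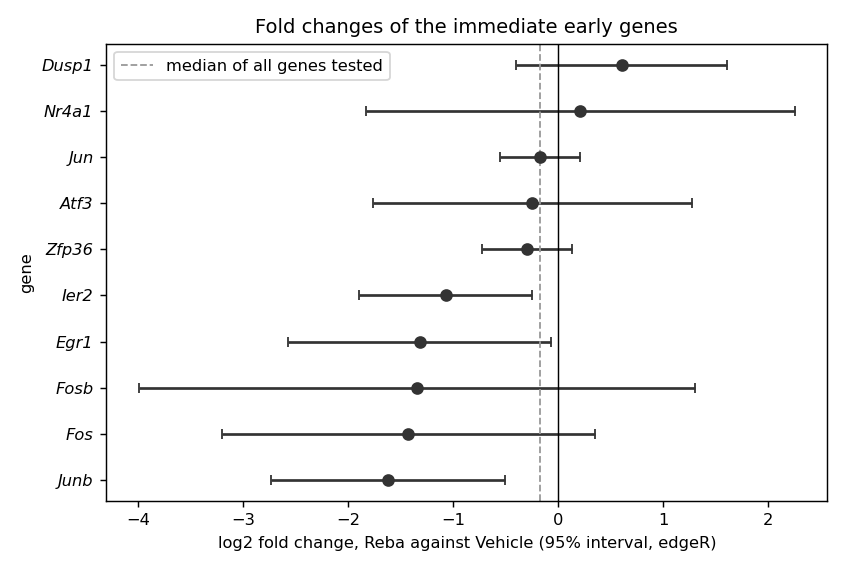
Log2 fold change of each gene, Reba against vehicle (x axis), with its 95% interval from edgeR, ordered by value, and the median of all genes tested (-0.175) as a dashed line. The intervals of Junb, Egr1 and Ier2 lie below 0, and that of Jun is the narrowest.

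Compared per length, the order of the genes differed between the groups. In the vehicle group Junb was the highest at 31.6 ± 6.05 CPM per kilobase, followed by Ier2 (25), Jun (23.3), Egr1 (20.2), Nr4a1 (18.3), Dusp1 (14.5), Zfp36 (13.2), Fos (10.1), Atf3 (7.15) and Fosb (1.43). Only Atf3 and Fosb, the last neighbours in this order, had ranges over the vehicle libraries that did not overlap. In the Reba group Dusp1 was the highest at 22.0 ± 4.03 CPM per kilobase, followed by Nr4a1 (21.2), Jun (20.7), Ier2 (11.9), Zfp36 (10.7), Junb (10.3), Egr1 (8.09), Atf3 (6.03), Fos (3.75) and Fosb (0.563). Here only Jun and Ier2 were neighbours without overlap.

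The spread between replicates of one group was itself wide for most of the 10 genes. The standard deviation of log2 CPM had a median of 0.70 over the members in the vehicle group and 0.87 in the Reba group, against 0.37 and 0.40 over all genes tested. In the vehicle group Fosb (1.77), Nr4a1 (1.57) and Fos (1.08) lay at the percentiles 97.7, 96.9 and 90.2 of all genes. Jun (0.12) and Zfp36 (0.21) lay at the percentiles 12.7 and 27.7, and in the Reba group Zfp36 (0.02) lay at 0.4.

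This spread followed the libraries. Vehicle replicate 3 was the highest of its group for 7 of the 10 members and vehicle replicate 2 the lowest for 7, and Reba replicate 3 was the lowest of its group for 7. Averaged over the members, log2 CPM relative to each gene's own mean was 0.28, -0.35 and 1.01 in vehicle replicates 1 to 3 and 0.23, -0.19 and -0.98 in Reba replicates 1 to 3. By this mean, vehicle replicate 2 lay below Reba replicates 1 and 2, so the groups overlapped. Hair follicle markers were low both in vehicle replicate 3 (275 CPM), where this mean was highest, and in Reba replicates 2 and 3 (1.25 and 0.458 CPM), where it was below 0. The fibroblast and leukocyte markers summed highest in vehicle replicate 3 (19300 and 1410 CPM) and lowest in Reba replicate 3 (2030 and 349 CPM). The endothelial and adipocyte markers instead summed highest in Reba replicate 3 (1560 and 22400 CPM). Reba replicate 3 was also the library with the fewest keratinocyte and fast muscle transcripts (fast muscle 272 CPM, against 5320 to 33700 CPM in the others). The part of any of these cell types in these values was not tested.

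**Figure D4:**
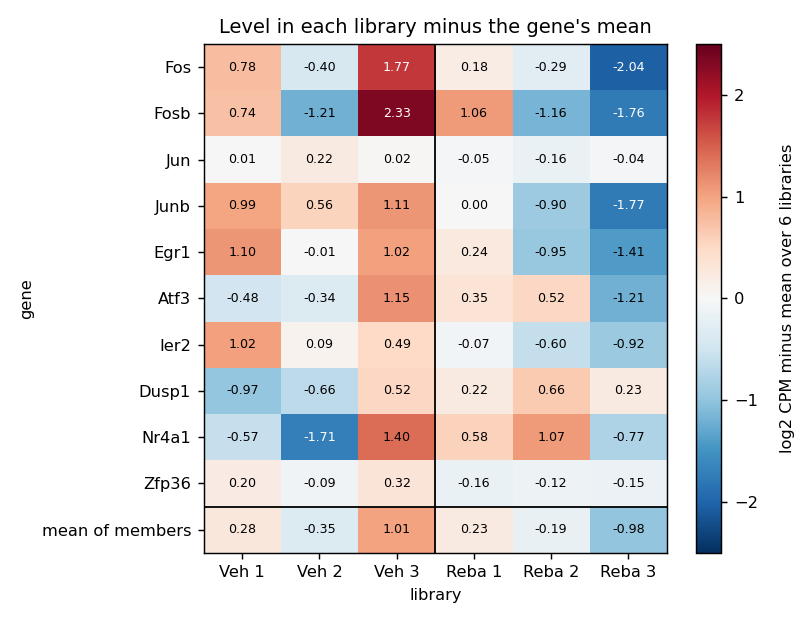
Log2 CPM of each gene minus its mean over the 6 libraries (colour and printed value), with the mean of the 10 genes in the last row and libraries as columns. Vehicle replicate 3 has the highest mean (1.01) and Reba replicate 3 the lowest (-0.98), and Jun and Zfp36 stay near 0 in all libraries.

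Among 13368 other genes with a mean of at least 50 counts, those whose centred profile over the 6 libraries was nearest to the mean of the members were Tnfrsf12a, Arid5a, Cd83, Nfkbid and Tfpi2. Their root mean square differences from it were 0.18, 0.22, 0.22, 0.24 and 0.24 on the log2 scale, while those of the members themselves ranged from 0.44 (Atf3) to 0.90 (Fosb). None of these 5 genes passed the test between the groups (adjusted p = 0.242 to 0.361, edgeR). They were picked for nearness to a mean profile in which the groups overlap. Neither their small differences nor these p-values are therefore a separate result.

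Markers of several cell types differed between the groups beside the members. The endothelial markers (8 genes) summed to no more than 607 CPM in any vehicle library, whereas the Reba libraries held 1130 to 1560 CPM, with 4 of 8 higher at an adjusted p-value under 0.05 (edgeR), against 14.1% of all genes here and for the adjusted counts that follow. The adipocyte markers (10 genes) summed to 1670 to 4970 and 12600 to 22400 CPM, with 7 of 10 higher, and the brown adipocyte markers (8 genes) to 214 to 384 and 5040 to 13000 CPM, with 6 of 8 higher and Ucp1 at 0 counts in the vehicle libraries. Elovl3 of the brown list went the other way, at 176, 129 and 238 CPM in vehicle replicates 1 to 3, where the list summed to 214, 225 and 384 CPM. In Reba replicates 1 to 3 Elovl3 was at 82.3, 83.1 and 33.3 CPM (log2 fold change -1.45, adjusted p = 0.0575, edgeR). The slow skeletal muscle markers (5 genes) summed to 1.88 to 13.2 and 5.19 to 256 CPM, with 3 of 5 higher, and the blood markers (5 genes) to 42.4 to 200 and 345 to 809 CPM, with 3 of 5 higher. The smooth muscle and pericyte markers (7 genes) summed to 417 to 576 and 690 to 1140 CPM. The suprabasal keratinocyte markers (8 genes) summed to 1420 to 6500 and 5.61 to 1630 CPM, the fibroblast markers (8 genes) to 12600 to 19300 and 2030 to 16200 CPM, and the leukocyte markers (8 genes) to 559 to 1410 and 349 to 1190 CPM. In these 4 lists 0 genes passed in edgeR at an adjusted p-value under 0.05, and at an unadjusted p-value under 0.05 4 smooth muscle and pericyte markers were higher while 2 fibroblast markers and 1 leukocyte marker were lower, against 20.9% and 18.8% of all genes. Their part in the values of the immediate early genes was not tested.

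The wider family of early response genes moved in both directions. Of 52 listed genes 50 were tested, with 5 called higher and 6 called lower in the Reba group (edgeR, adjusted p-value under 0.05), against 14.1% and 6.51% of all genes, and their median log2 fold change was -0.74. Higher were Dusp10 and Dusp4, phosphatases of MAP kinases, with 15.5 ± 1.95 against 68.2 ± 19.9 CPM (log2 fold change 2.14, adjusted p = 0.00993, edgeR) and 12.3 ± 2.09 against 47.2 ± 15.4 CPM (1.94, adjusted p = 0.014, edgeR). Gadd45g, a stress-induced growth arrest gene, went from 9.79 ± 0.324 to 51.8 ± 19.9 CPM (2.40, adjusted p = 0.0107, edgeR). Rhob (1.22) and Sik1 (1.41) completed the higher genes, Sik1 being named after its value was seen.

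Lower in the Reba group were Plk3, a stress kinase gene, with 40 ± 13.1 against 8.80 ± 4.01 CPM (log2 fold change -2.18), Dusp5, a nuclear ERK phosphatase gene, with 19.0 ± 6.30 against 3.84 ± 2.18 CPM (-2.30), and Myc with 34.6 ± 10.8 against 12.1 ± 4.38 CPM (-1.52). Their adjusted p-values were 0.0261, 0.0275 and 0.0348 (edgeR), and the other lower genes were Klf4, Ier5 and Fosl2. Fosl2, named for its part in AP-1, went from 186 ± 49.2 to 68.3 ± 26.5 CPM (log2 fold change -1.45, adjusted p = 0.0427, edgeR). The phosphatase genes of this family included members called in opposite directions. Among the abundant genes of the list per length were the ZFP36 relatives Zfp36l1 (log2 fold change -0.09, adjusted p = 0.72, edgeR) and Zfp36l2 (0.47, adjusted p = 0.232, edgeR). Without vehicle replicate 2 edgeR called 0 of all genes and without Reba replicate 2 it called 1, so 0 genes of this list were called in those fits, and without vehicle replicate 1 or Reba replicate 3 the lower genes numbered 0 and 1, where 379 and 382 of all genes were called lower.

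Of the 22 upstream kinases and promoter factors, 3 were called lower and 0 higher by edgeR after adjustment, where 6.51% and 14.1% of all genes were called. In the higher direction, 6 had an unadjusted p-value under 0.05 in edgeR, against 20.9% of all genes, DESeq2 called 4, against 2649 of all 16792 genes it tested, and limma-voom called 1, against 2138 of 14875. Creb1, which encodes CREB, went from 30.7 ± 3.85 to 11.3 ± 3.26 CPM (log2 fold change -1.44, adjusted p = 0.0227, edgeR). Rps6ka3, which encodes the ERK-activated kinase RSK2, had a log2 fold change of -1.40 (adjusted p = 0.0146, edgeR) and Map2k4, a kinase upstream of JNK, of -0.82 (adjusted p = 0.0291, edgeR). Mapk3 and Mapk14, which encode MAP kinases and were among the most abundant genes of the list per length, had log2 fold changes of 0.04 and 0.16 and did not pass (adjusted p = 0.875 and 0.531, edgeR). Without vehicle replicate 2, Reba replicate 2 or Reba replicate 3, 0 genes of this list were called lower by edgeR, which in these fits called 0, 0 and 382 of all genes lower.

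Genes of heat shock and of dissociation stress did not share one direction either. Of 20 genes, edgeR called 3 higher and 0 lower after adjustment, where 14.1% and 6.51% of all genes were called, with 5 lower at an unadjusted p-value under 0.05, against 18.8% of all genes. DESeq2 called 4 of them lower and limma-voom 2, where they called 2535 of 16792 and 1033 of 14875 of all genes lower. The higher genes included Hspe1 and Hspd1, which encode the mitochondrial chaperonin and overlap at their ends on opposite strands. Hspe1 went from 73.3 ± 7.92 to 193 ± 33.8 CPM (log2 fold change 1.39, adjusted p = 0.0121, edgeR) and Hspd1 from 222 ± 47.1 to 565 ± 211 CPM (1.35, adjusted p = 0.0488, edgeR). The cytosolic chaperone genes Hsp90ab1 and Hspa8, the most abundant per length, had log2 fold changes of 0.09 and 0.04 (adjusted p = 0.826 and 0.916, edgeR). Hspa1b went from 84.2 ± 10.7 to 15.1 ± 11.5 CPM (log2 fold change -2.47, adjusted p = 0.0528, edgeR) and Hspa1a from 15.3 ± 1.09 to 4.61 ± 3.2 CPM (-1.73, adjusted p = 0.116, edgeR). In both, every Reba library was below every vehicle library. This was so for 8 of the 20 genes, and 4 had every Reba library above, against 24% and 24.5% of all genes. Without vehicle replicate 2 or Reba replicate 2, where 0 and 1 of all genes were called higher by edgeR, 0 genes of this list were. It was 1 without vehicle replicate 1 or Reba replicate 3, where 1507 and 1012 of all genes were called higher.

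Of 13 genes that respond to glucocorticoids, the hormones released when an animal is handled, 1 was called higher and 0 lower, against 14.1% and 6.51% of all genes (edgeR, adjusted p-value under 0.05, with 1 lower at an unadjusted p-value under 0.05, against 18.8% of all genes). DESeq2 and limma-voom called 0 of the list lower, where they called 2535 of 16792 and 1033 of 14875 genes lower. Sgk1, a serum and glucocorticoid regulated kinase gene, went from 85.8 ± 9.40 to 209 ± 85.8 CPM (log2 fold change 1.29, adjusted p = 0.0463, edgeR), and 0 genes of the list were called with limma-voom or without vehicle replicate 2 or 3 or Reba replicate 2 or 3 (edgeR). Of all genes, limma-voom called 2138 higher. Without vehicle replicate 2 or 3, edgeR called 0 and 1727 of all genes higher, and without Reba replicate 2 or 3 it called 1 and 1012. Mt1 (0.34) and Cdkn1a (0.06), the most abundant of the list per length in both groups, did not pass (adjusted p = 0.614 and 0.892, edgeR).

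**Figure D5:**
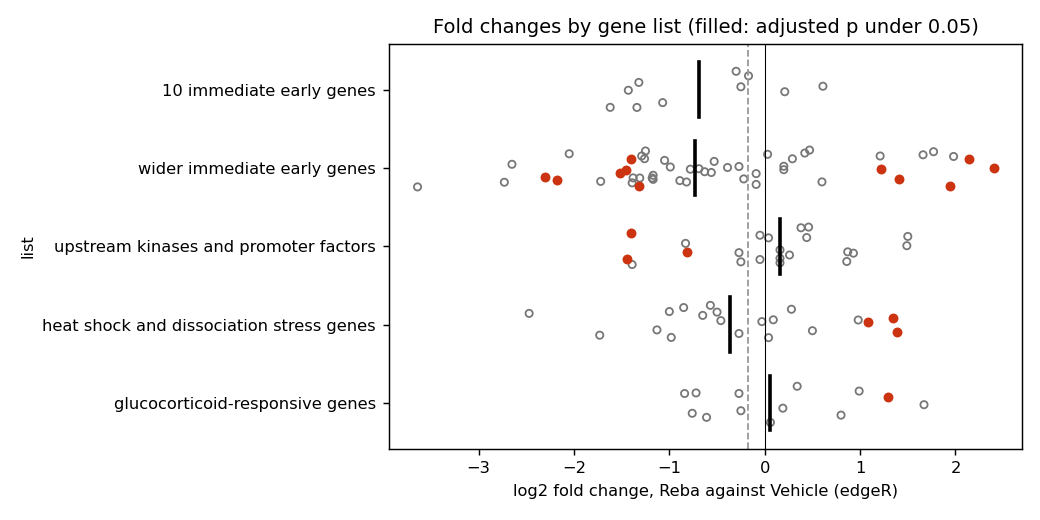
Log2 fold change, Reba against vehicle (x axis), of each tested gene of the 5 lists (rows), filled where the adjusted p-value was under 0.05, with list medians as black bars and the median of all genes tested (-0.175) as a dashed line. None of the 10 immediate early genes is filled in this edgeR fit, and the wider list holds filled points on both sides.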

How the data were processed

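Poly-A RNA of full-thickness dorsal skin was sequenced, 1 library per sample, from 3 vehicle and 3 Reba mice. Gene-level raw counts and FPKM were deposited in one table. The FPKM deposited by the authors equal counts per kilobase of gene length and per library total. The submitters' processing notes name fastp 0.22.0, HISAT2 2.1.0, HTSeq 0.9.1 and GRCm39, and the strand setting is not given in the sources used here. Gene positions are those of the deposited table. Promoters and transcript structures, on GRCm38, were matched by symbol or gene ID.

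The tests on counts used edgeR 4.0.16 under R 4.3.3 (TMM, filterByExpr, quasi-likelihood test, Benjamini-Hochberg adjustment over 14875 genes). Log2 CPM used a prior count of 2. The fits were tested on simulated counts. The alternatives included DESeq2 1.42.0, limma 3.58.1 (voom, and log2(FPKM + 1)), other normalizations and filters, a replicate block and each library left out, and DESeq2 and limma-voom with a library left out and the AP-1 shares were added after the data were seen. The members and lists were chosen with earlier results of these data known. Named were all members and, of each other list, up to 3 called genes per direction with the smallest p-values and the 3 most abundant per length, and the 5 genes nearest to the members' mean profile. Some genes that this rule names are not reported here. Of the lists Krt85 was not analysed here, and Egr4 and Il6 did not pass the filter.

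Depth was 32709801 to 39915276 counts per library. Counts of same-group libraries differed beyond counting error, with chi-square over its degrees of freedom at 79.1 to 713.6. The mice were separate animals according to the study's methods.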

Additional observations from a re-analysis of the deposited data

How the results depend on the processing

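The counts of called genes depended on the settings. The study's thresholds (log2 fold change beyond 1 in either direction, p under 0.05 before adjustment) were applied here to the edgeR fit. The paper applied them to DESeq2. By DESeq2, the members that met them were Fos (log2 fold change -1.46, unadjusted p = 0.0491), Junb (-1.64), Egr1 (-1.34) and Ier2 (-1.08), all lower. DESeq2 counts under them are not given for the other lists or for all genes. For the 10 members (0 higher, 0 lower by edgeR), the lower calls were 2 with DESeq2, 1 with limma-voom, 1 with RLE normalization, 2 with at least 10 counts in every library, 4 with total counts alone, 5 with log2(FPKM + 1) and 3 under the study's thresholds, and leaving out 1 library gave 0 to 1 higher and 0 to 5 lower over edgeR, DESeq2 and limma-voom. Over all genes the lower calls also rose, from 968 to 2535 with DESeq2, 1512 with at least 10 counts in every library, 2161 under the study's thresholds, 4809 with log2(FPKM + 1) and 3752 with total counts alone, and were 1033 with limma-voom and 1041 with RLE normalization. With 1 library left out, calls over all genes ranged from 0 to 3608 higher and from 0 to 4225 lower over edgeR, DESeq2 and limma-voom. The ranges of the members and lists belong beside these. The wider list (5 higher, 6 lower) gave 8 and 14 with DESeq2, 9 and 14 under the study's thresholds, 17 lower with total counts alone and 26 lower with log2(FPKM + 1), and 0 to 12 higher and 0 to 22 lower with 1 library left out (lower by edgeR 0 to 11, by DESeq2 8 to 22, with 11 without vehicle replicate 1 or 3 and 15 without vehicle replicate 2). The upstream list (0 higher, 3 lower) gave 4 higher with DESeq2, 1 with limma-voom, 2 with at least 10 counts in every library and 2 under the study's thresholds, 9 lower with log2(FPKM + 1) and 7 with total counts alone, and 0 to 6 in either direction with 1 library left out. The heat shock list (3 higher, 0 lower) gave 1 higher and 8 lower with total counts alone, 1 higher and 10 lower with log2(FPKM + 1), and 4, 2, 1, 1, 3 and 3 lower with DESeq2, limma-voom, RLE, upper quartile, at least 10 counts in every library and the study's thresholds, and 0 to 5 higher and 0 to 7 lower with 1 library left out. The glucocorticoid list (1 higher, 0 lower) gave 2 higher with DESeq2 and under the study's thresholds, 0 with limma-voom, 0 higher and 2 lower under both total counts alone and log2(FPKM + 1), 1 lower with at least 10 counts in every library, and 0 to 3 higher and 0 to 2 lower with 1 library left out. The cause of these changes was not tested.

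With total counts alone the log2 fold changes of Dusp1 and Nr4a1 were -0.01 and -0.38, and that of Nr4a1 was -0.05 with log2(FPKM + 1). With 1 library left out, that of Nr4a1 ranged from -0.29 to 1.52 and that of Atf3 from -0.56 to 0.49 by edgeR. By the other tools, Nr4a1 was at -0.12 (DESeq2, without vehicle replicate 1), -0.23 (DESeq2, without Reba replicate 2) and -0.15 (limma-voom, without vehicle replicate 2), and Atf3 at 0.48 and 0.32 without vehicle replicate 3 and at 0.15 and 0.34 without Reba replicate 3 (DESeq2 and limma-voom). Junb kept its direction in all 29 alternatives (-2.23 to -1.26) and was called in 14 of them. Over all genes, 2093 were higher and 968 lower by edgeR, and 0 in either direction without vehicle replicate 2 (4116 at an unadjusted p-value under 0.05), and 1 higher and 0 lower without Reba replicate 2 (4062 at an unadjusted p-value under 0.05).

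Same-numbered libraries shared only a number, since their deviations from the group means correlated at -0.016, -0.038 and 0.003. With the replicate block, 0 members were called, the wider list gave 3 higher and 7 lower, the upstream list 1 higher and 2 lower, the heat shock list 1 higher, and 1432 of all genes were higher and 855 lower.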
